A study of Mus musculus with 9 samples.

Results

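Interferon-producing killer dendritic cells (IKDC) were compared with conventional dendritic cells (CDC) in 2 organs of the mouse, on 6 of the 9 Affymetrix arrays of the study. The IKDC group held 2 arrays of fresh spleen IKDC and 1 array of fresh lymph node IKDC, and the CDC group held 2 arrays of fresh spleen CDC and 1 array of fresh lymph node CDC. All cells were sorted from naive BALB/c mice of 6 to 8 weeks of age, without treatment or genetic change named in the labels. The 3 NK arrays of the same organs entered the normalisation, the choice of probe sets, the filter on dim genes and the estimate of the spread, and are given where a value turns on them. The arrays were matched by organ and number into 3 pairs, spleen 1, spleen 2 and lymph node, and the genes described are those whose difference, IKDC minus CDC, had the same sign in all 3 pairs. Of the 10916 genes tested, 5891 met this rule, 3202 higher and 2689 lower in IKDC. The labels give neither the sorting gates nor whether cells of several animals were pooled, and they do not say that arrays came from separate animals, so the p-values measure only the spread between these samples.

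IKDC were described as cells of mouse lymphoid organs that carry surface markers of both natural killer (NK) cells and dendritic cells, kill target cells and secrete interferon gamma. NK cells are innate lymphocytes that read ligands on other cells through activating and inhibitory receptors and kill through perforin and granzymes. CDC take up, process and present antigen on MHC class II molecules, sense microbes through Toll-like receptors and give costimulatory signals to T cells.

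Levels below are log2 normalised intensities, given in the order spleen 1, spleen 2 and lymph node, and differences are IKDC minus CDC on the same scale. A gene is called where limma, fitted on all 9 arrays with organ and cell type as terms, gave a Benjamini-Hochberg adjusted p below 0.05 over the 10916 genes. Dim genes were filtered at a level of 5.31, and where the lower group averaged less than this, its fold is a lower bound computed against 5.31 and written with "at least". In sorted populations fewer cells of a type and less RNA per cell cannot be told apart. The arrays were not alike in quality or source. The median intensity ranged from 23.4 to 41.3 and was lowest on spleen IKDC array 2, and the 3′ to 5′ signal ratio of actin was 3.23 on spleen IKDC array 1 and at most 2.35 on the others. Xist and the Y-linked Eif2s3y separated the spleen arrays numbered 1 from all other arrays in every cell type, so each pair compared arrays of like pattern in these genes.

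The labels were checked against defining markers. Ncr1, which encodes the NK receptor NKp46, was at 10.97, 11.55 and 11.55 on the IKDC arrays, against 5.94, 5.06 and 6.22 on the CDC arrays. Zbtb46, a zinc finger factor found in conventional dendritic cells, was at 5.42, 6.20 and 5.92 on the IKDC arrays, against 8.76, 8.63 and 8.86 on the CDC arrays. On both genes the groups were far apart, with Ncr1 higher and Zbtb46 lower on the IKDC arrays. Ncr1 matched the killer part of the IKDC name, while Zbtb46 set IKDC apart from CDC and did not show the dendritic part of that name. Itgax, which encodes the dendritic cell integrin CD11c, was at 11.03, 11.24 and 10.88 on the IKDC arrays, against 11.89, 12.37 and 11.39 on the CDC arrays (and 11.32, 7.27 and 8.19 on the NK arrays). The IKDC arrays were below their CDC partner in every pair, above spleen NK array 2 and the lymph node NK array and below spleen NK array 1, and the IKDC to CDC difference was not called (-0.83 ± 0.81 (SE), adjusted p = 0.54). Ptprc, which encodes CD45 and its B220 form, was at 12.85, 12.85 and 12.73 on the IKDC arrays, against 12.84, 13.13 and 12.18 on the CDC arrays, and the groups overlapped (0.09 ± 0.17 (SE), adjusted p = 0.756). Its difference was negative on the values as deposited, at -0.61.

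The test called 1894 genes, 17.4% of those tested, of which 1003 (9.19%) were higher and 891 (8.16%) lower in IKDC. These shares are the background for the counts of called members in the gene lists below. A shared sign in all 3 pairs was commoner, at 54%, with 29.3% higher and 24.6% lower. Among the called genes 1893 had the same sign in all 3 pairs. The exception was Arhgap6, named because it was alone, and it was not called without spleen IKDC array 1, spleen IKDC array 2, spleen CDC array 1 or spleen CDC array 2 (adjusted p up to 0.168). In 1795 called genes the 3 IKDC and 3 CDC arrays did not overlap, against 15.8% of all tested genes without overlap and higher and 14.5% without overlap and lower. Differences of 4-fold or more were called in 344 higher and 340 lower genes. The median difference over all tested genes was 0.05. Without the lymph node IKDC array 632 genes were called higher. On the spleen arrays alone 1115 genes were called in all, 515 of them higher. The called gene nearest to the threshold had an adjusted p of 0.0499, and the nearest gene outside it lay just above 0.05.

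The genes with the largest fitted differences in favour of IKDC were mostly lymphocyte genes. Klrc1, which encodes the NK receptor chain NKG2A, was at 11.51, 12.06 and 11.71 on the IKDC arrays, against 6.31, 4.52 and 5.58 on the CDC arrays, a 78.1-fold difference (6.29 ± 0.41 (SE), adjusted p = 2.56e-05). Crtam, an adhesion receptor of activated cytotoxic lymphocytes, was at 11.31, 10.34 and 9.996 on the IKDC arrays, against 5.34, 3.18 and 4.53 on the CDC arrays (at least 37.8-fold higher). Gpr174, a lysophosphatidylserine receptor, was at 9.51, 9.12 and 9.52 on the IKDC arrays, against 3.57, 2.85 and 3.29 on the CDC arrays (at least 16.9-fold higher). On these genes every CDC array was at 6.31 or below, and the gap between the groups was wider than the range within either. Cd2, an adhesion molecule of T and NK cells, was at least 40.3-fold higher (5.81 ± 0.32 (SE), adjusted p = 1.47e-05). Jakmip1, which encodes a Janus kinase and microtubule interacting protein, was at 11.01, 11.29 and 10.93 on the IKDC arrays, against 6.38, 3.10 and 6.79 on the CDC arrays, with a CDC spread of more than 3 on the log2 scale. The other genes among the 10 largest were Gimap6, Gimap9, S1pr5, Prkcq and Il2rb, described with their groups below. Dimmer probe sets above the filter level gave smaller differences, 3.38 for Klrc1, 3.59 for Gpr174, 4.30 for Gimap6, 3.06 for Il2rb and 1.27 for Jakmip1. Among genes whose CDC mean lay below the filter level the order, and with it a place among the 10, rests on values near background. No order is read from these values.

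The largest differences in favour of CDC came from myeloid genes and from genes of several other kinds. Havcr2, which encodes the inhibitory receptor TIM-3, was at 5.44, 5.33 and 4.98 on the IKDC arrays, against 10.73, 11.20 and 10.47 on the CDC arrays, at least 45.1-fold lower in IKDC (-5.55 ± 0.24 (SE), adjusted p = 1.47e-05). Gm6377, a gene with a provisional symbol, was at 5.17, 5.02 and 3.74 on the IKDC arrays, against 10.66, 10.17 and 10.62 on the CDC arrays (at least 36.1-fold lower). Rasgrp3, an exchange factor that activates Ras and Rap, was at 5.82, 5.68 and 4.69 on the IKDC arrays, against 10.73, 10.65 and 10.80 on the CDC arrays (40.2-fold lower). The 3 CDC arrays lay within 1 log2 unit of each other on each of these genes. Notch4, a Notch receptor, was at least 22.8-fold lower (-5.23 ± 0.45 (SE), adjusted p = 8.42e-05), and Rab30, a small GTPase of the Golgi, was at least 17.3-fold lower. Mmp12, the macrophage elastase, was at least 18-fold lower, and Slamf8, a SLAM family receptor of myeloid cells, was 35.9-fold lower (-5.17 ± 0.40 (SE), adjusted p = 5.12e-05). Sirpb1a, Cxcl9 and Tlr3 complete the 10 and are given below. The other Cxcl9 probe set above the filter level differed by -2.82. Where the IKDC mean lay below the filter level, a place among these 10 rests on values near background.

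**Figure D1:**
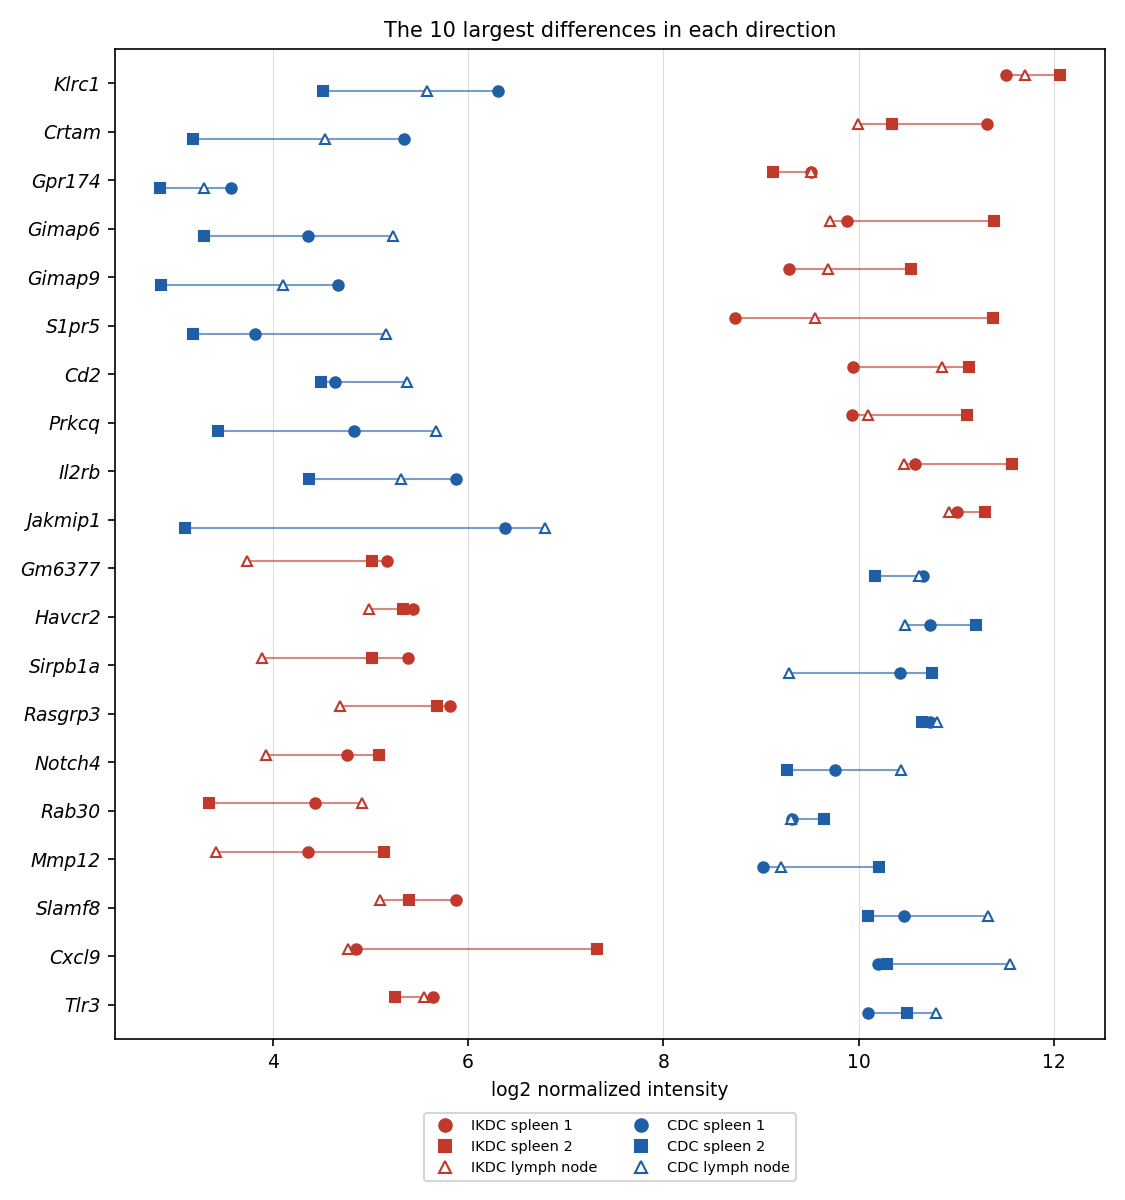
Log2 normalised intensity of the 10 genes with the largest positive and the 10 with the largest negative difference, by array. Each point is an array, IKDC above CDC, with the organ shown by the marker. On all 20 genes the 3 IKDC and the 3 CDC points do not overlap, as the choice of these genes required.

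Receptor genes of NK cells were higher in IKDC in both organs. Of 17 tested members 14 were higher and 0 lower, against 9.19% of all genes called higher, and the median difference of the list was 3.16, with 3.04, 3.20 and 2.98 in the spleen 1, spleen 2 and lymph node pairs. Klre1, a lectin-like receptor of NK cells, was at 10.89, 11.42 and 11.53 on the IKDC arrays, against 5.81, 5.29 and 6.24 on the CDC arrays (5.50 ± 0.27 (SE), adjusted p = 1.47e-05). Klrk1, which encodes the activating receptor NKG2D, was at 9.20, 9.26 and 10.34 on the IKDC arrays, against 6.75, 6.79 and 7.84 on the CDC arrays, 5.56-fold higher. Ncr1, given above, was 49.1-fold higher (5.62 ± 0.31 (SE), adjusted p = 1.47e-05). The 3 members that were not called were Klrb1b (difference 0.26), Slamf7 (-0.85) and Fcgr3 (0.85), named because they were so few. Klrb1c, the gene of NK1.1, shares its probe set with another gene and was not analysed here.

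Signalling genes downstream of these receptors differed in both directions. The list of adaptors and kinases that act at immunoreceptor tyrosine-based activation motifs (ITAM) had 10 of 17 members higher and 2 lower, with a median of 1.59, with 1.49, 1.10 and 2.17 in the spleen 1, spleen 2 and lymph node pairs. Zap70, the kinase that docks on phosphorylated ITAM in T and NK cells, was at 9.87, 9.31 and 9.64 on the IKDC arrays, against 6.07, 4.13 and 5.58 on the CDC arrays (at least 19.7-fold higher). Of its 2 other probe sets 1 differed by 4.29 and the other by -0.01. Prkcq, the protein kinase C theta of T cells, was at least 33.6-fold higher, Sh2d1a, the adaptor SAP of SLAM receptors, at least 12.4-fold (5.22 ± 0.32 (SE), adjusted p = 2.17e-05), and Txk, a Tec family kinase of T and NK cells, at least 13.2-fold higher (4.36 ± 0.53 (SE), adjusted p = 0.000586). The 2 lower members were Btk, the Tec kinase of B cells and myeloid cells (-2.76 ± 0.43 (SE), adjusted p = 0.00223), and Plcg1, a phospholipase C (-1.53 ± 0.37 (SE), adjusted p = 0.0211), named because they were so few. Plcg1 was not called without the lymph node IKDC array, spleen CDC array 1 or spleen CDC array 2 (adjusted p up to 0.101), and on the median of its probe sets its difference was -0.31 and not called.

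Cytotoxic effector genes were higher in IKDC. In the granule and death ligand list 10 of 19 tested members were higher and 0 lower (median 1.46, with 1.82, 2.06 and 2.33 in the spleen 1, spleen 2 and lymph node pairs). Gzma, a granzyme, was at 13.16, 13.19 and 13.09 on the IKDC arrays, against 9.68, 7.83 and 9.63 on the CDC arrays. Prf1, which encodes perforin, was at 10.94, 11.59 and 10.15 on the IKDC arrays, against 6.20, 5.99 and 5.66 on the CDC arrays. Gzmb, a granzyme that cleaves caspases, was at 11.66, 11.21 and 9.91 on the IKDC arrays, against 6.78, 4.70 and 6.08 on the CDC arrays. Gzma was well above the filter level on the CDC arrays, while Prf1 and Gzmb were nearer to it, and the folds were 17.1-fold, 30.8-fold and 33.8-fold. Nkg7, a granule membrane protein, was at 12.32, 12.31 and 12.27 on the IKDC arrays, against 8.20, 5.80 and 8.67 on the CDC arrays, and Ctsw, a cathepsin of cytotoxic lymphocytes, was 27.4-fold higher (4.78 ± 0.34 (SE), adjusted p = 3.62e-05). Fasl, the ligand of the death receptor Fas, was 26.6-fold higher (4.73 ± 0.38 (SE), adjusted p = 5.71e-05). Its other probe set above the filter level differed by 2.10. Tnfsf10, which encodes TRAIL, was at 6.83, 6.97 and 7.54 on the IKDC arrays, against 6.03, 5.84 and 5.08 on the CDC arrays, without overlap of the groups but also without a call (1.46 ± 0.47 (SE), adjusted p = 0.0635). Its other probe set above the filter level, dimmer on average, differed by 3.13, so the size of the Tnfsf10 difference is uncertain.

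Cytokine genes of NK cells were higher in 6 of 9 tested members and lower in 0 (median 2.77, with 2.38, 3.07 and 2.04 in the spleen 1, spleen 2 and lymph node pairs). Ifng, the gene of interferon gamma, was at 11.18, 11.19 and 9.26 on the IKDC arrays, against 5.88, 4.70 and 5.31 on the CDC arrays, at least 37.7-fold higher (5.24 ± 0.42 (SE), adjusted p = 5.83e-05). The lymph node IKDC array was the lowest of the 3 IKDC arrays and still stood above every CDC array. Xcl1, a chemokine whose receptor XCR1 marks a subset of conventional dendritic cells, was at 11.32, 9.64 and 10.24 on the IKDC arrays, against 6.75, 4.29 and 4.98 on the CDC arrays (33.4-fold higher). Csf2, the gene of GM-CSF, was at least 4.46-fold higher (4.22 ± 0.77 (SE), adjusted p = 0.00531), while Ccl3, an inflammatory chemokine, was at 12.68, 12.74 and 10.44 on the IKDC arrays, against 10.30, 9.66 and 6.24 on the CDC arrays. Csf2 and its receptor thus differed in opposite directions, since Csf2ra, the GM-CSF receptor alpha chain, was 20.7-fold lower in IKDC (-4.37 ± 0.28 (SE), adjusted p = 2.56e-05). The same held for Xcl1 and Xcr1, which was at least 12.1-fold lower (-4.52 ± 0.42 (SE), adjusted p = 0.00013).

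Of the receptors for interleukin 2, 12, 15 and 18 and their relatives, 5 of 10 tested members were higher and 1 lower (median 1.09, with 1.44, 1.19 and 1.13 in the spleen 1, spleen 2 and lymph node pairs). Il2rb, the chain shared by the IL-2 and IL-15 receptors, was at 10.58, 11.57 and 10.46 on the IKDC arrays, against 5.88, 4.37 and 5.31 on the CDC arrays (at least 47.3-fold higher). Both chains of the IL-18 receptor were higher, Il18r1 by 37.3-fold (5.22 ± 0.47 (SE), adjusted p = 0.000107) and Il18rap by 21.6-fold (4.43 ± 0.29 (SE), adjusted p = 2.56e-05). Il7r, the IL-7 receptor, was at 11.10, 9.98 and 12.11 on the IKDC arrays, against 7.60, 7.82 and 9.86 on the CDC arrays, with the lymph node array highest in each cell type. Il12rb2, a chain of the IL-12 receptor, was at 5.49, 6.07 and 5.78 on the IKDC arrays, against 5.05, 5.30 and 5.81 on the CDC arrays and was not called (0.39 ± 0.39 (SE), adjusted p = 0.542). The ligand Il18 was lower in IKDC (-1.74 ± 0.28 (SE), adjusted p = 0.00281), as was Il15 (-1.68 ± 0.46 (SE), adjusted p = 0.0344), which was not called without spleen IKDC array 1, the lymph node IKDC array, spleen CDC array 1 or the lymph node CDC array (adjusted p up to 0.147). The lower receptor was Ifngr2, a chain of the interferon gamma receptor (-1.76 ± 0.26 (SE), adjusted p = 0.00168), named because it was alone.

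Transcription factors of lymphoid cells were higher in 12 of 16 tested members and lower in 0 (median 2.84, with 2.89, 3.61 and 2.45 in the spleen 1, spleen 2 and lymph node pairs). Eomes, a T-box factor of NK cells and cytotoxic T cells, was at 11.57, 12.34 and 11.87 on the IKDC arrays, against 7.54, 5.97 and 7.16 on the CDC arrays, 32.9-fold higher. Tbx21, which encodes the related factor T-bet, was at 11.08, 11.82 and 10.64 on the IKDC arrays, against 7.86, 7.29 and 6.93 on the CDC arrays (3.82 ± 0.28 (SE), adjusted p = 4.16e-05). Ets1, a factor of lymphocytes, was 34.8-fold higher (5.12 ± 0.27 (SE), adjusted p = 1.47e-05). Gata3, a factor of T cells and innate lymphocytes, was at 7.51, 8.67 and 7.78 on the IKDC arrays, against 2.85, 2.95 and 3.11 on the CDC arrays, and Tox, which takes part in T and NK cell development, was at least 8.96-fold higher. Stat4, which carries the IL-12 signal, was 12-fold higher (3.58 ± 0.28 (SE), adjusted p = 5.35e-05). Id2, an inhibitor of E proteins needed by NK cells and by conventional dendritic cells alike, was at 11.91, 11.0 and 11.62 on the IKDC arrays, against 11.76, 11.17 and 11.96 on the CDC arrays, high on all 6 arrays and not called (-0.12 ± 0.26 (SE), adjusted p = 0.805).

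GIMAP genes, which encode GTPases of the immunity-associated family that act in lymphocyte survival, were higher in all 8 tested members (median 5.32, with 4.59, 6.75 and 4.39 in the spleen 1, spleen 2 and lymph node pairs). Gimap6 was at 9.88, 11.39 and 9.70 on the IKDC arrays, against 4.36, 3.30 and 5.23 on the CDC arrays (at least 32.4-fold higher). Gimap9 was at least 23.1-fold higher, Gimap5 at least 22.1-fold and Gimap7 39.9-fold. The lowest of the 8 differences was that of Gimap3, at 2.79, and the 3 IKDC arrays were above the 3 CDC arrays on all 8. Survival genes of the BCL2 family were mixed, with 3 of 9 higher and 2 lower (median 0.24, with -0.37, 0.57 and 0.30 in the spleen 1, spleen 2 and lymph node pairs). Bcl2, which blocks apoptosis, was at 9.67, 10.29 and 10.42 on the IKDC arrays, against 7.22, 7.20 and 6.84 on the CDC arrays (3.04 ± 0.26 (SE), adjusted p = 8.36e-05), and Bcl2l11, which encodes the pro-apoptotic BIM, was also higher (2.06 ± 0.29 (SE), adjusted p = 0.00144). Pmaip1, which encodes the pro-apoptotic NOXA, was at 6.72, 8.09 and 6.05 on the IKDC arrays, against 11.40, 12.27 and 9.10 on the CDC arrays, 15.7-fold lower. Without the lymph node IKDC array 1 member of this list was called lower.

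Receptors that guide migration differed in both directions, with 4 of 11 tested members higher and 1 lower (median 1.19, with 0.66, 0.92 and 0.89 in the spleen 1, spleen 2 and lymph node pairs). S1pr5, a sphingosine 1-phosphate receptor through which NK cells leave lymphoid organs, was at 8.73, 11.37 and 9.55 on the IKDC arrays, against 3.82, 3.19 and 5.16 on the CDC arrays (at least 23.8-fold higher). S1pr4, a related receptor, was 8.2-fold higher (3.04 ± 0.36 (SE), adjusted p = 0.000539). Ccr6, a chemokine receptor of dendritic cells and B cells, was at 6.20, 5.84 and 7.94 on the IKDC arrays, against 9.61, 10.45 and 9.49 on the CDC arrays (-3.19 ± 0.74 (SE), adjusted p = 0.0178). It was not called without the lymph node IKDC array, spleen CDC array 1 or spleen CDC array 2 (adjusted p up to 0.0662). Ccr7, which guides dendritic cells and T cells to lymph nodes, was at 5.91, 6.23 and 6.88 on the IKDC arrays, against 6.25, 8.22 and 9.17 on the CDC arrays, lower in each IKDC array than in its CDC partner, and was not called (-1.54 ± 0.65 (SE), adjusted p = 0.146). Ccr2, a receptor of monocytes that NK cells also carry, was higher (1.62 ± 0.35 (SE), adjusted p = 0.0128) and not called without spleen CDC array 1 (adjusted p = 0.0562), and Cx3cr1, the fractalkine receptor, was not called (-0.65 ± 0.44 (SE), adjusted p = 0.365). Of 9 integrin genes 2 were higher, Itgal, which encodes the alpha chain of LFA-1 (1.70 ± 0.22 (SE), adjusted p = 0.000862), and Itga2, which encodes the NK marker DX5 antigen (1.48 ± 0.27 (SE), adjusted p = 0.00495). Of all genes 9.19% were called higher and 17.4% in either direction.

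The promoters of 4 genes with large differences, 2 in each direction, are shown as examples of where the words searched lie before a start, and were chosen after their values were seen. All 4 hold matches and are not typical, since the promoters of Klrc1, Prf1, Ifng and Batf3, among others, held none. The sequences shown are the 250 bases upstream of the start of each gene from RefSeq, build GRCm38.p6, written 5′ to 3′ on the strand of the gene, with matches in capitals. The words searched on both strands were AGGTGTGA for T-box factors, GAGGAAGT for PU.1, TGTGGTT for Runx factors, GGAANNGAA for joint ETS and IRF binding, GAAANNGAA for interferon response elements and GATTGG for the inverted CCAAT box, and the ETS and IRF word and the interferon response word can overlap. Nkg7 (chr7:43436888-43437137, plus strand) holds a T-box word 14 bases and an inverted CCAAT word 63 bases before its start. Gzma (chr13:113100982-113101231, minus strand) holds a Runx, a joint ETS and IRF and 2 interferon response words. Havcr2 (chr11:46454681-46454930, plus strand) holds a PU.1 word directly before the start and a Runx word. Cxcl9 (chr5:92328080-92328329, minus strand) holds an interferon response, a Runx and an inverted CCAAT word.
Nkg7: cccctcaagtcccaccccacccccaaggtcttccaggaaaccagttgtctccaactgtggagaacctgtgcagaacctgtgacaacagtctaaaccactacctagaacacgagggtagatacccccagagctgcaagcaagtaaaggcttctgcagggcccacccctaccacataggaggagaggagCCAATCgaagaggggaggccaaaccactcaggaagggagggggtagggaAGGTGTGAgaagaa
Gzma: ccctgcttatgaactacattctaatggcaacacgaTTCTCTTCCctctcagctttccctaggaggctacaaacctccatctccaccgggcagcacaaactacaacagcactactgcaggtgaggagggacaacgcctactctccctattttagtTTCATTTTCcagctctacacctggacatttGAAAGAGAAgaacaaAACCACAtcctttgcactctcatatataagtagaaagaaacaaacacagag
Havcr2: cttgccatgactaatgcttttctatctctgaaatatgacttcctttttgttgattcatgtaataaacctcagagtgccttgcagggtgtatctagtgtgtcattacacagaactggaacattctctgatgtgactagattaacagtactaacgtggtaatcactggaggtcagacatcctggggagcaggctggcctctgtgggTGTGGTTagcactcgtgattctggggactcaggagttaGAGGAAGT
Cxcl9: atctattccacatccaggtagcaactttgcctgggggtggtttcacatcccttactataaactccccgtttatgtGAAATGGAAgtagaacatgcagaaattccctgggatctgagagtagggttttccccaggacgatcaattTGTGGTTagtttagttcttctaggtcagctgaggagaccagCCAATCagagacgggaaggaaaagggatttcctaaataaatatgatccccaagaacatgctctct

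These words are common in promoters, and a match is a description of the letters. The T-box word was in 1.01% of the 795 promoters of genes higher in IKDC and 0.417% of the 720 promoters of genes lower in IKDC, against 0.92% of the 8913 promoters of tested genes. The PU.1 word was in 3.65%, 4.17% and 3.11% of the same groups. The Runx word was in 5.28%, 4.03% and 4.04%, the joint ETS and IRF word in 7.04%, 8.33% and 7.37%, the interferon response word in 8.18%, 9.86% and 7.44%, and the inverted CCAAT word in 21.6%, 21.8% and 22%. The T-box shares rest on 8 and 3 promoters of genes that differed, and no test was made of any word.

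Transcription factors of conventional dendritic cells were lower in IKDC in 9 of 15 tested members and higher in 0 (median -1.79, with -1.66, -1.75 and -1.96 in the spleen 1, spleen 2 and lymph node pairs), against 8.16% of all genes called lower. Without spleen IKDC array 1, 1 member was called higher. Spi1, which encodes PU.1, was at 6.03, 5.78 and 6.75 on the IKDC arrays, against 10.26, 10.28 and 10.37 on the CDC arrays (17.4-fold lower). Batf3, which the cross-presenting subset of dendritic cells requires, was at 6.50, 5.52 and 5.55 on the IKDC arrays, against 10.07, 10.03 and 10.18 on the CDC arrays (18.8-fold lower). Mycl, which encodes L-MYC, was at least 10.1-fold lower (-3.60 ± 0.52 (SE), adjusted p = 0.00154), and Irf5, which acts downstream of Toll-like receptors, was 7.52-fold lower (-2.91 ± 0.21 (SE), adjusted p = 4.08e-05). The other Irf5 probe set above the filter level differed by -0.32, so the size of the Irf5 difference is uncertain. Zbtb46 was 7.49-fold lower (-2.91 ± 0.31 (SE), adjusted p = 0.000296). Irf8, which several dendritic cell lineages require, was at 11.57, 11.92 and 12.44 on the IKDC arrays, against 12.42, 12.15 and 12.57 on the CDC arrays, high on all 6 arrays and not called (-0.40 ± 0.35 (SE), adjusted p = 0.489). Irf4 was at 6.85, 7.33 and 6.37 on the IKDC arrays, against 8.78, 9.56 and 6.89 on the CDC arrays, lower in each IKDC array than in its CDC partner but with overlap between the organs (-1.56 ± 0.50 (SE), adjusted p = 0.0646), and both cell types lay above the NK arrays, with 5.51, 3.79 and 3.62 on the NK arrays.

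Receptors of the dendritic cell surface were lower in 18 of 23 tested members and higher in 0, with a median of -2.64, with -3.27, -2.84 and -2.12 in the spleen 1, spleen 2 and lymph node pairs. Flt3, the receptor of the growth factor that maintains dendritic cells, was at 6.13, 5.75 and 8.69 on the IKDC arrays, against 10.90, 11.25 and 10.84 on the CDC arrays (-4.14 ± 0.54 (SE), adjusted p = 0.000914). The lymph node IKDC array stood well above both spleen IKDC arrays on this gene and still below every CDC array. Cd207, which encodes langerin, was at 5.95, 5.71 and 4.82 on the IKDC arrays, against 9.53, 10.28 and 11.09 on the CDC arrays (28-fold lower). Clec4a2, a lectin with an inhibitory motif, was at least 23.7-fold lower (-4.75 ± 0.39 (SE), adjusted p = 6e-05). Csf2rb, the signalling chain of the GM-CSF receptor, was at 7.09, 7.999 and 9.49 on the IKDC arrays, against 10.81, 10.94 and 11.34 on the CDC arrays (-2.84 ± 0.64 (SE), adjusted p = 0.0147). It was not called without spleen CDC array 1 or spleen CDC array 2 (adjusted p up to 0.0577).

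MHC class II genes and their regulators were lower in 9 of 15 tested members and higher in 0, with a median of -2.61, with -2.34, -3.59 and -1.19 in the spleen 1, spleen 2 and lymph node pairs. Ciita, the regulator on which class II transcription depends, was at 4.87, 5.82 and 5.74 on the IKDC arrays, against 9.53, 9.86 and 8.60 on the CDC arrays (14.5-fold lower). H2-Ob, a chain of the class II modulator H2-O, was at 7.21, 6.53 and 6.37 on the IKDC arrays, against 11.69, 11.79 and 11.25 on the CDC arrays (29.4-fold lower). H2-DMb2, a chain of the peptide editor H2-DM, was at 7.87, 7.40 and 7.09 on the IKDC arrays, against 12.003, 11.94 and 10.94 on the CDC arrays (18.1-fold lower). These members were low on all 3 IKDC arrays, the lymph node included. Marchf1, a ubiquitin ligase that removes class II from the surface, was 14.7-fold lower as well (-3.88 ± 0.44 (SE), adjusted p = 0.000412).

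The class II chains themselves were bright in both cell types. H2-Ab1, the beta chain of I-A, was at 9.63, 8.81 and 10.79 on the IKDC arrays, against 12.88, 12.93 and 12.75 on the CDC arrays, 8.6-fold lower. Cd74, the invariant chain, was at 10.49, 8.79 and 11.73 on the IKDC arrays, against 12.82, 13.09 and 12.92 on the CDC arrays (-2.61 ± 0.70 (SE), adjusted p = 0.0321). The lymph node array was the highest IKDC array on both genes, and Cd74 was not called without spleen IKDC array 2, spleen CDC array 1, spleen CDC array 2 or the lymph node CDC array (adjusted p up to 0.108). H2-Aa, the alpha chain of I-A, was at 12.01, 10.91 and 11.90 on the IKDC arrays, against 12.57, 12.84 and 11.99 on the CDC arrays on its brightest probe set and was not called (-0.86 ± 0.90 (SE), adjusted p = 0.571). The 3 other H2-Aa probe sets differed by -2.23, -3.72 and -2.65. On the values as deposited another of them was the brightest and was called, at -2.62 (adjusted p = 0.00614). Class II genes belong to a multigene family whose probes can cross-hybridise, so the size of the H2-Aa difference is uncertain.

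Endosomal genes that feed antigen presentation were lower in 6 of 13 tested members and higher in 2 (median -1.19, with -1.19, -1.53 and -0.46 in the spleen 1, spleen 2 and lymph node pairs). Ifi30, the thiol reductase GILT, was at 8.52, 7.84 and 10.93 on the IKDC arrays, against 12.40, 12.57 and 12.53 on the CDC arrays (-3.40 ± 0.54 (SE), adjusted p = 0.00273). Ctsh, a cathepsin, was at 7.95, 8.18 and 11.65 on the IKDC arrays, against 12.23, 12.48 and 11.78 on the CDC arrays (-2.90 ± 0.72 (SE), adjusted p = 0.0223). On Ctsh the lymph node pair was nearly level while both spleen pairs differed by more than 4, and it was not called without spleen IKDC array 1, spleen IKDC array 2, spleen CDC array 1 or spleen CDC array 2 (adjusted p up to 0.0871). Ctsd, the aspartic protease cathepsin D, went the other way, at 11.78, 12.35 and 11.80 on the IKDC arrays, against 9.05, 8.86 and 8.74 on the CDC arrays, 8.53-fold higher (3.09 ± 0.19 (SE), adjusted p = 2.17e-05). The other higher member was Ctse, the related cathepsin E, named because they were so few, with overlap of the groups (0.99 ± 0.27 (SE), adjusted p = 0.0329). Ctse was not called without spleen IKDC array 2, the lymph node IKDC array, spleen CDC array 1, spleen CDC array 2 or the lymph node CDC array (adjusted p up to 0.116), and on the median of its probe sets its difference was -0.33. Ctsz, another cathepsin, was 5.1-fold lower (-2.35 ± 0.44 (SE), adjusted p = 0.00586). Of the genes of MHC class I presentation 0 of 14 were higher and 1 lower in limma, a share near the 8.16% of all genes called lower, with a median of -0.14, with -0.02, 0.02 and -0.24 in the spleen 1, spleen 2 and lymph node pairs. The lower member was Psmb9, an immunoproteasome subunit (-1.11 ± 0.20 (SE), adjusted p = 0.00511), and 5 of the 14 had an unadjusted p below 0.05. The count of lower members was 2 without spleen IKDC array 1 or spleen IKDC array 2, 3 with a replicate block and 0 on the spleen arrays alone. Tap1, a chain of the peptide transporter, missed the threshold (-0.85 ± 0.26 (SE), adjusted p = 0.0538).

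Ligands that costimulate or inhibit T cells were lower in 7 of 13 tested members and higher in 1 (median -1.18, with -1.08, -1.74 and -1.02 in the spleen 1, spleen 2 and lymph node pairs). Cd86 was at 6.20, 6.70 and 5.92 on the IKDC arrays, against 10.36, 10.63 and 11.07 on the CDC arrays (21.3-fold lower). Cd80, the related ligand of CD28, was at 4.50, 4.76 and 4.13 on the IKDC arrays, against 7.996, 8.01 and 8.18 on the CDC arrays (at least 6.74-fold lower). Cd40, the receptor through which T cells license dendritic cells, was at 4.92, 6.27 and 6.11 on the IKDC arrays, against 9.02, 9.35 and 10.73 on the CDC arrays (15.3-fold lower). The IKDC and CDC arrays did not overlap on any of the 3. Cd83, a maturation marker, was 8.49-fold lower (-3.09 ± 0.42 (SE), adjusted p = 0.0011). The higher member was Tnfsf4, which encodes OX40L (1.80 ± 0.42 (SE), adjusted p = 0.0175), named because it was alone and not called without spleen IKDC array 1, spleen CDC array 1 or spleen CDC array 2 (adjusted p up to 0.0653).

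Toll-like receptors and their adaptors were lower in 6 of 16 tested members and higher in 0 (median -0.89, with -1.73, -1.28 and -0.78 in the spleen 1, spleen 2 and lymph node pairs). Tlr3, which detects double-stranded RNA in the endosome, was at 5.64, 5.25 and 5.55 on the IKDC arrays, against 10.09, 10.49 and 10.79 on the CDC arrays (31.5-fold lower). Tlr13, a sensor of bacterial ribosomal RNA, was at least 9.94-fold lower (-3.69 ± 0.45 (SE), adjusted p = 0.000606), and Tlr1, a partner of TLR2, was 6.65-fold lower (-2.73 ± 0.47 (SE), adjusted p = 0.00377). Unc93b1, which brings nucleic acid sensors to the endosome, was at 7.87, 7.99 and 9.60 on the IKDC arrays, against 10.90, 11.01 and 10.84 on the CDC arrays (-2.43 ± 0.40 (SE), adjusted p = 0.00303). Tlr7, a sensor of single-stranded RNA, was at 4.93, 5.42 and 7.85 on the IKDC arrays, against 6.96, 7.99 and 4.15 on the CDC arrays. Its lymph node difference opposed those of the spleen pairs, and the mean difference was not called (-0.30 ± 1.01 (SE), adjusted p = 0.879). Myd88, the adaptor of most Toll-like receptors, was not called either (-0.42 ± 0.24 (SE), adjusted p = 0.287). Tlr9 averaged below the filter level over the 9 arrays and was not tested, with 4.94, 5.72 and 5.48 on the IKDC arrays, against 4.50, 5.02 and 6.31 on the CDC arrays.

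Cytosolic sensors and interleukin 1 family genes were lower in 5 of 11 tested members and higher in 1 (median -0.54, with -1.04, -0.52 and -0.52 in the spleen 1, spleen 2 and lymph node pairs). Il1b, the gene of interleukin 1 beta, was at 6.15, 6.56 and 5.64 on the IKDC arrays, against 11.10, 11.67 and 9.87 on the CDC arrays (27.2-fold lower). Il1r2, the decoy receptor of interleukin 1, was at least 8.18-fold lower (-4.16 ± 0.82 (SE), adjusted p = 0.00783), and Nlrp3, an inflammasome sensor, was lower (-1.53 ± 0.38 (SE), adjusted p = 0.0239) but not called without spleen IKDC array 2, spleen CDC array 1 or spleen CDC array 2 (adjusted p up to 0.091). The higher member was Ddx58, which encodes the viral RNA sensor RIG-I (1.24 ± 0.23 (SE), adjusted p = 0.00559), named because it was alone. It was not called on the spleen arrays alone, at 0.98, or on the median of its probe sets, at 0.78, and without spleen IKDC array 1 the list had 2 higher members. Cytokines and chemokines of dendritic cells were lower in 5 of 7 tested members and higher in 0 (median -2.52, with -1.45, -1.73 and -4.22 in the spleen 1, spleen 2 and lymph node pairs). Cxcl9, an interferon-induced ligand of CXCR3, was at 4.86, 7.33 and 4.77 on the IKDC arrays, against 10.20, 10.29 and 11.55 on the CDC arrays (-5.03 ± 0.93 (SE), adjusted p = 0.00562). Ebi3, a chain of interleukin 27, was 11.8-fold lower (-3.57 ± 0.51 (SE), adjusted p = 0.00148). Ccl22, a chemokine of mature dendritic cells, was at 4.50, 5.20 and 6.03 on the IKDC arrays, against 5.43, 7.02 and 10.85 on the CDC arrays, with the lymph node CDC array far above the others (-2.52 ± 0.69 (SE), adjusted p = 0.0344). It was not called without spleen IKDC array 1, the lymph node IKDC array, spleen CDC array 2 or the lymph node CDC array (adjusted p up to 0.156). Cxcl16, the ligand of CXCR6, was also highest on that array, at 5.99, 6.83 and 6.35 on the IKDC arrays, against 7.75, 8.56 and 10.60 on the CDC arrays (-2.58 ± 0.62 (SE), adjusted p = 0.0202), and was not called without the lymph node IKDC array or spleen CDC array 2 (adjusted p up to 0.0955). Of this list 1 member was called on the spleen arrays alone, 2 without the lymph node IKDC array, and 3 without spleen IKDC array 1, spleen CDC array 2 or the lymph node CDC array. Il12b, a chain of interleukin 12, averaged below the filter level over the 9 arrays and was not tested, with 4.94, 4.74 and 4.54 on the IKDC arrays, against 5.72, 7.03 and 6.85 on the CDC arrays.

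Fc, scavenger and inhibitory receptors of myeloid cells were lower in 4 of 12 tested members and higher in 0 (median -0.82, with -1.20, -1.16 and -1.23 in the spleen 1, spleen 2 and lymph node pairs). Sirpb1a, a signal regulatory protein of myeloid cells, was at 5.38, 5.01 and 3.89 on the IKDC arrays, against 10.43, 10.75 and 9.28 on the CDC arrays (at least 28.8-fold lower). Pirb, a paired inhibitory receptor for class I molecules, was 13.2-fold lower (-3.72 ± 0.60 (SE), adjusted p = 0.00273), and Cd300a, an inhibitory receptor, was 9.55-fold lower (-3.26 ± 0.45 (SE), adjusted p = 0.00128). The other lower member was Havcr2. Interferon-stimulated genes were lower in 3 of 14 tested members and higher in 0 (median -0.42, with -0.72, -0.47 and -0.06 in the spleen 1, spleen 2 and lymph node pairs). Of all genes 8.16% were called lower and 17.4% in either direction. The 3 lower members were Oas2 (-2.02 ± 0.27 (SE), adjusted p = 0.000928), Mx1 (-1.74 ± 0.35 (SE), adjusted p = 0.00806) and Usp18 (-1.06 ± 0.22 (SE), adjusted p = 0.00938), which encode a synthetase that activates RNase L, an antiviral GTPase and an ISG15 protease.

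Immediate early and stress genes were lower in 3 of 11 tested members and higher in 0 (median -0.29, with -0.82, -0.39 and 0.16 in the spleen 1, spleen 2 and lymph node pairs). Of all genes 8.16% were called lower and 17.4% in either direction. Atf3, a stress-induced factor, was at 8.80, 8.07 and 4.61 on the IKDC arrays, against 12.08, 11.92 and 7.85 on the CDC arrays (11-fold lower). On it the lymph node array was the lowest in both cell types, and the gap between the cells was of similar size in the 3 pairs. Hspa1a, a heat shock protein, was lower (-2.63 ± 0.54 (SE), adjusted p = 0.00967) and not called without the lymph node IKDC array (adjusted p = 0.0568). Egr1, an early growth response factor, was lower (-0.94 ± 0.26 (SE), adjusted p = 0.0378) and not called without spleen IKDC array 1, spleen IKDC array 2, the lymph node IKDC array, spleen CDC array 1 or spleen CDC array 2 (adjusted p up to 0.134). Without the lymph node IKDC array 1 member of the list was called. Glycolysis genes were called in 2 of 14 tested members, a share no higher than the 17.4% of all genes (median 0.46, with 0.46, 0.25 and 0.07 in the spleen 1, spleen 2 and lymph node pairs). Hk2, a hexokinase, was at 7.51, 7.39 and 6.60 on the IKDC arrays, against 9.26, 9.47 and 9.34 on the CDC arrays (4.56-fold lower), while Pfkp, the platelet form of phosphofructokinase, was higher (1.15 ± 0.33 (SE), adjusted p = 0.0438) and not called without spleen IKDC array 1, spleen IKDC array 2, spleen CDC array 1 or spleen CDC array 2 (adjusted p up to 0.15).

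Genes of dividing cells gave no call among 26 tested members in limma, and 0 had an unadjusted p below 0.05. The median of the list was -0.07, with 0.69, 0.05 and -1.21 in the spleen 1, spleen 2 and lymph node pairs. Mki67, which encodes the division marker Ki-67, was at 11.91, 9.07 and 8.63 on the IKDC arrays, against 10.97, 9.35 and 9.86 on the CDC arrays (-0.19 ± 0.83 (SE), adjusted p = 0.91). The spleen arrays numbered 1 were the highest of their cell type, and the 3 pair differences did not share a sign. Mcm4, a subunit of the replicative helicase (0.57 ± 0.43 (SE), adjusted p = 0.42), and Cenpa, the centromeric histone (0.66 ± 0.51 (SE), adjusted p = 0.424), had the largest positive differences among the 26.

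**Figure D2:**
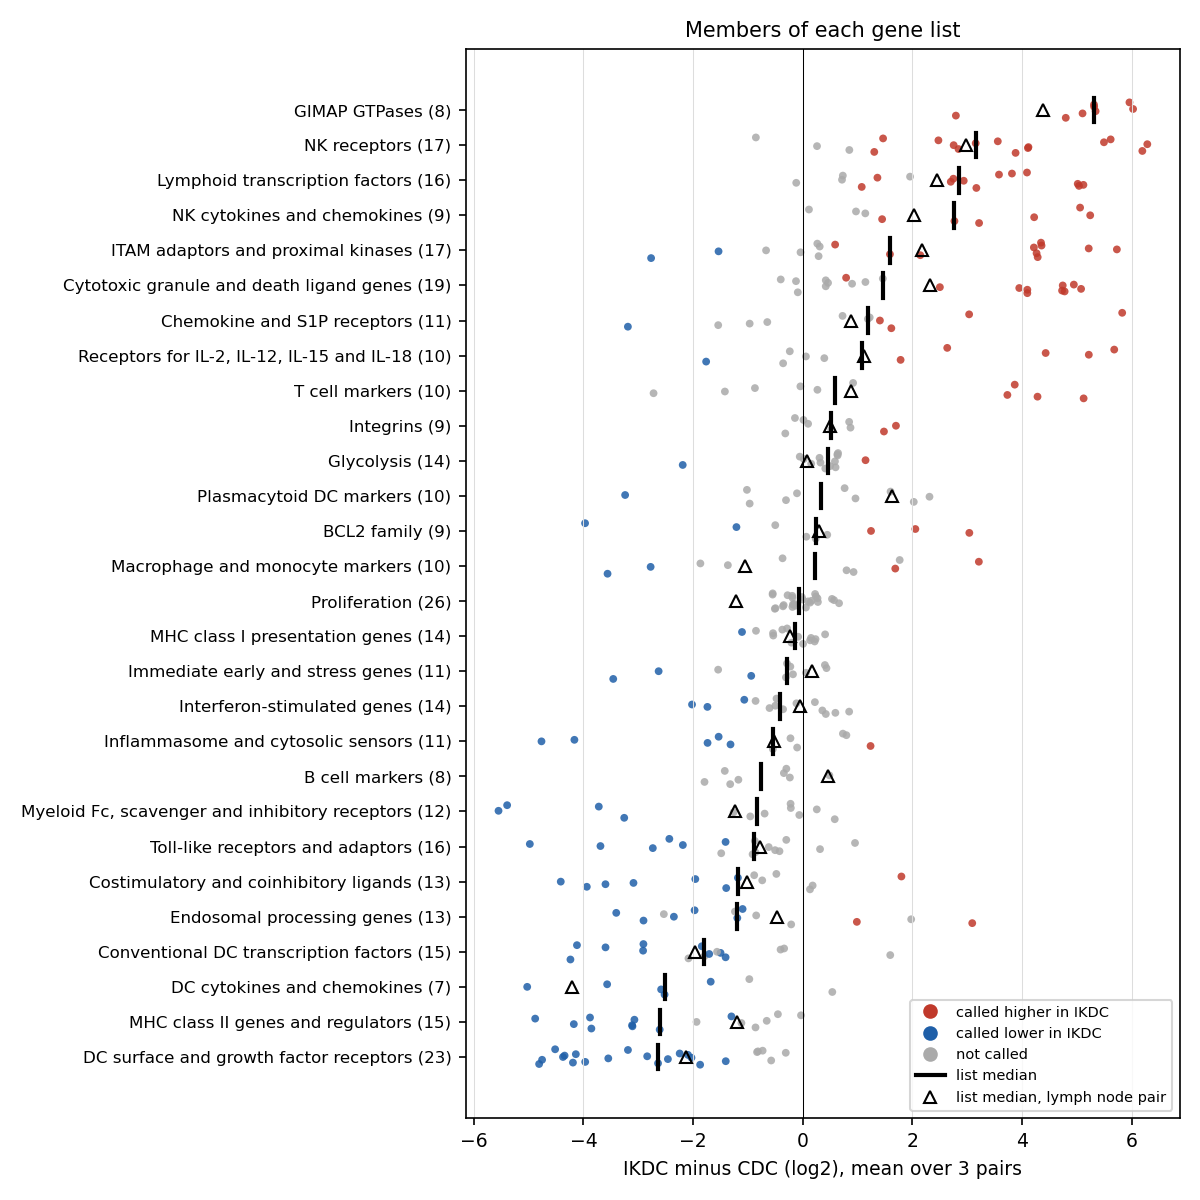
Log2 difference, IKDC minus CDC, of every tested member of the gene lists with more than 3 tested members (number in brackets), coloured where called higher or lower in IKDC, with the list median as a bar and the median of the lymph node pair as a triangle. The GIMAP list has the highest median, 5.32, and the lists of NK receptors and lymphoid transcription factors follow, at 3.16 and 2.84, while the lists of dendritic cell surface receptors and class II genes lie at -2.64 and -2.61.

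The organs were then compared. Across the tested genes the differences of the 2 spleen pairs correlated at 0.774, those of spleen 1 and the lymph node at 0.721 and those of spleen 2 and the lymph node at 0.665, as a description over genes, which are not independent. The organ test asked whether the IKDC to CDC difference in the lymph node departed from its spleen mean. It gave 0 calls (0%) in limma, with 615 genes (5.63%) at an unadjusted p below 0.05, and the smallest adjusted p was 0.174. The test took the spread of the lone lymph node arrays from the spleen arrays, so a count of 0 does not show that the organs are alike. The spleen mean also joined pairs of unlike Xist and Eif2s3y pattern. Xist was at 6.1, 11.4 and 12.1 on the IKDC arrays, against 6.0, 12.5 and 12.0 on the CDC arrays. The part of this pattern in the organ differences was not tested. Among the 1894 called genes 865 had a lymph node difference at least as large as the spleen mean. Differences of 2-fold or more in opposite directions in the organs were seen in 9 genes that were higher in both spleen pairs and 17 that were lower in both.

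**Figure D3:**
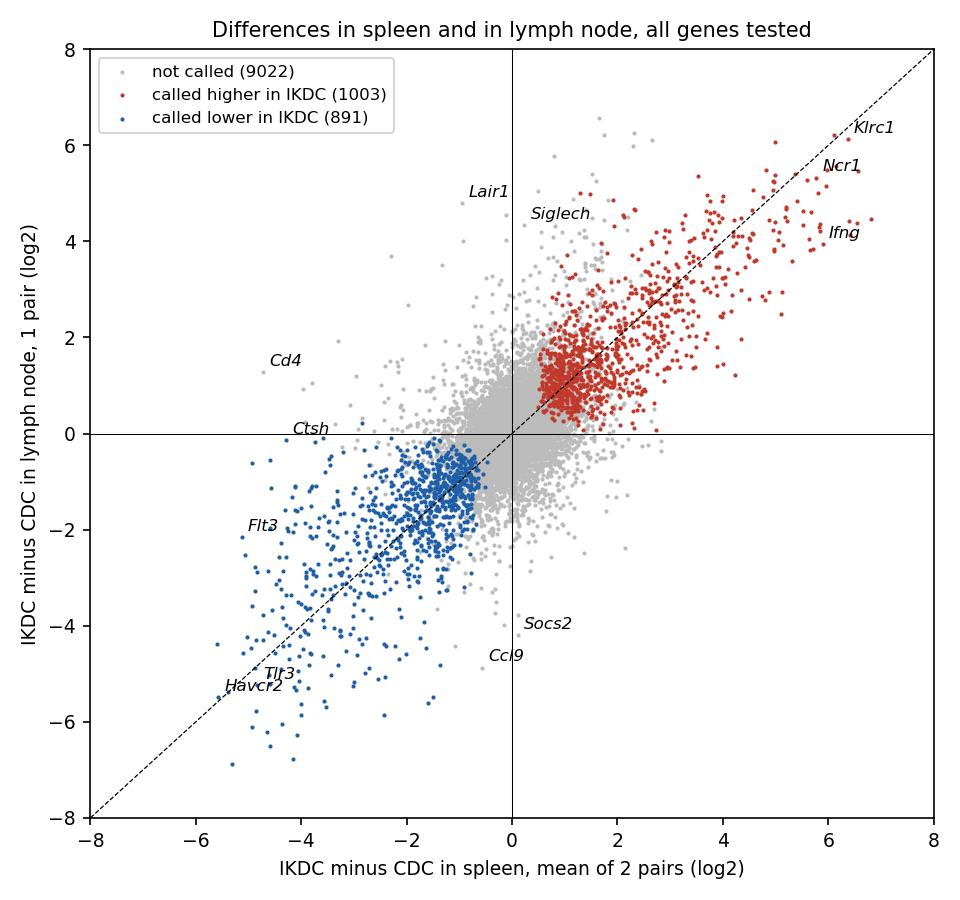
Log2 difference, IKDC minus CDC, in the lymph node pair (vertical axis) against the mean of the 2 spleen pairs (horizontal axis), 1 point for each of 10916 tested genes, with the 1003 genes called higher in red and the 891 called lower in blue. Called genes lie on both sides of the dashed line of equal difference, and Lair1, Siglech and Cd4 lie far above it without a call.

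The genes with the largest organ difference, given as a description because none was called, included some on which the lymph node IKDC array stood apart and some on which the lymph node CDC array did. Lair1, an inhibitory collagen receptor, was at 7.44, 7.99 and 10.07 on the IKDC arrays, against 8.85, 8.49 and 5.27 on the CDC arrays. Cd4, the coreceptor of helper T cells that some dendritic cells also carry, was at 4.18, 5.09 and 9.30 on the IKDC arrays, against 8.81, 9.90 and 8.02 on the CDC arrays. Kmo, an enzyme of tryptophan breakdown, was at 5.21, 6.91 and 9.90 on the IKDC arrays, against 9.70, 10.37 and 8.98 on the CDC arrays. On these genes, on Tlr7 and on Carmil1, which encodes a regulator of actin capping, the lymph node IKDC array was above both spleen IKDC arrays and above its CDC partner. In the other direction, Gadd45b, a stress response gene, was at 10.87, 9.75 and 8.01 on the IKDC arrays, against 7.63, 8.68 and 10.39 on the CDC arrays. Cdkn1a, which encodes the cell cycle inhibitor p21, was at 9.14, 8.79 and 6.72 on the IKDC arrays, against 8.998, 8.20 and 10.55 on the CDC arrays. Socs2, an inhibitor of cytokine signals, was at 5.51, 5.72 and 5.65 on the IKDC arrays, against 4.56, 6.45 and 9.84 on the CDC arrays. The lymph node CDC array was the highest of the 6 on Cdkn1a and Socs2 and on Ccl9 and Tnfaip2, and Tnfaip2, called as lower by a narrow margin (-2.93 ± 0.88 (SE), adjusted p = 0.0499), was not called without spleen IKDC array 1, the lymph node IKDC array, spleen CDC array 1 or the lymph node CDC array (adjusted p up to 0.208).

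Markers of plasmacytoid dendritic cells, the interferon alpha producers that share B220 with IKDC, were high on the lymph node IKDC array. Siglech, a lectin of these cells, was at 5.45, 6.51 and 10.78 on the IKDC arrays, against 5.64, 5.85 and 6.44 on the CDC arrays. Ccr9, a chemokine receptor they carry, was at 4.48, 6.64 and 11.78 on the IKDC arrays, against 8.46, 6.99 and 10.37 on the CDC arrays. Tcf4, the factor that specifies them, was at 10.03, 8.81 and 11.53 on the IKDC arrays, against 9.21, 9.17 and 9.70 on the CDC arrays. The lymph node IKDC array was the highest of all 6 on each of these genes, while the spleen IKDC arrays were 4 or more below it on Siglech and Ccr9. Summed over the 10 tested markers, the linear level was 2530, 1810 and 17100 on the IKDC arrays, against 5390, 5250 and 6750 on the CDC arrays. The list had 0 members higher and 1 lower, Pld4, a lysosomal exonuclease, at 6.69, 7.23 and 11.01 on the IKDC arrays, against 11.47, 11.61 and 11.55 on the CDC arrays (-3.24 ± 0.80 (SE), adjusted p = 0.0224), which was not called without spleen IKDC array 1, spleen IKDC array 2, spleen CDC array 1 or spleen CDC array 2 (adjusted p up to 0.0823). Members called higher were 2 without spleen IKDC array 2, with 6 groups in the fit or on the median of probe sets, and 1 without spleen CDC array 1 or with a replicate block, and 2 were called lower without the lymph node IKDC array. The list median was 0.33, with -0.30, -0.35 and 1.62 in the spleen 1, spleen 2 and lymph node pairs. Pacsin1, an endocytic adaptor, was at 8.47, 6.26 and 9.32 on the IKDC arrays, against 6.77, 4.65 and 5.69 on the CDC arrays and was not called (2.31 ± 0.80 (SE), adjusted p = 0.082). Flt3, Ctsh, Ifi30, Unc93b1 and Cd74 were also higher on the lymph node IKDC array than on both spleen IKDC arrays, and the part of plasmacytoid cells in those values was not tested. Without that array 15 of 23 dendritic cell surface receptors and 8 of 15 class II genes were called lower, against 18 and 9 with it. Over all genes the number called lower fell from 891 to 673 without it. The part of plasmacytoid cells in these counts was not tested.

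**Figure D4:**
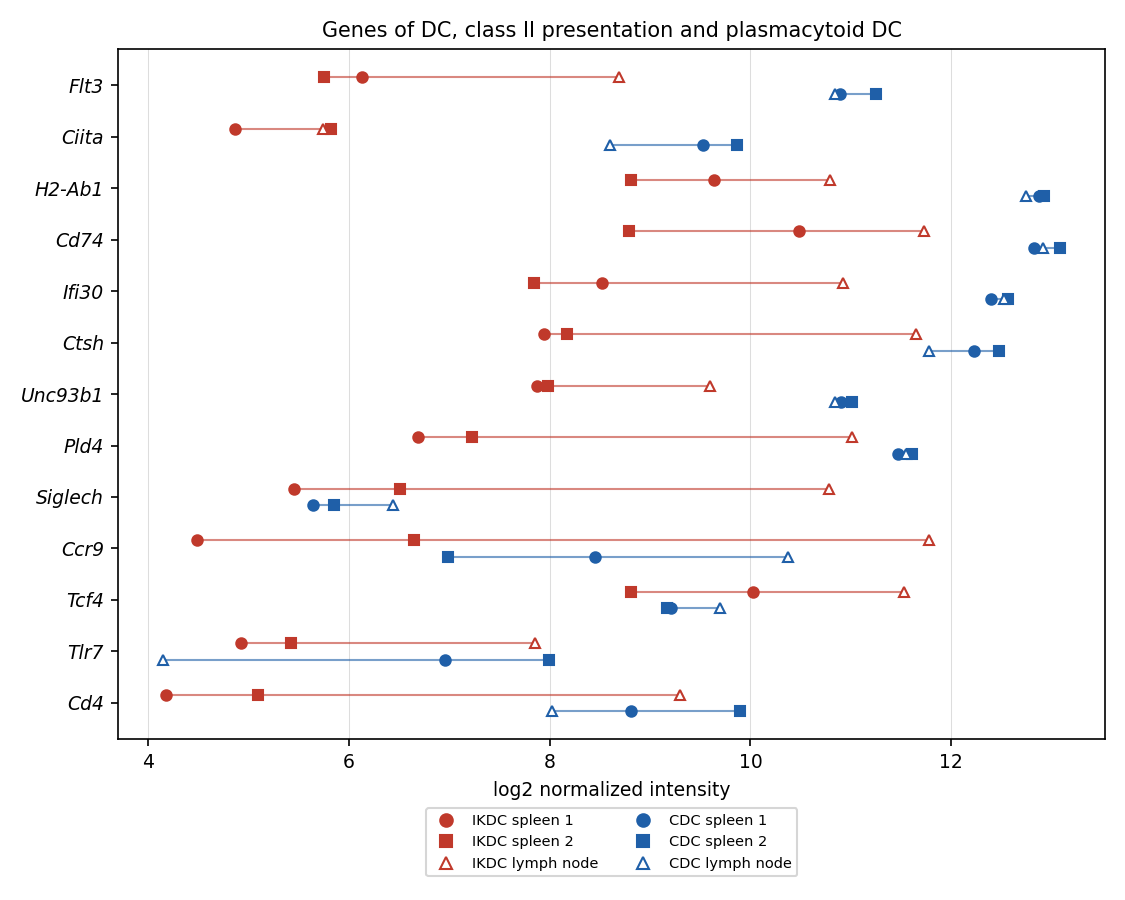
Log2 normalised intensity of genes of conventional and of plasmacytoid dendritic cells by array, IKDC above CDC. The lymph node IKDC point reaches 10.78 for Siglech and 11.78 for Ccr9, and lies at 8.69 for Flt3, between the spleen IKDC points and the CDC points.

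Markers of other cell types moved in part with the groups. T cell markers were higher in 4 of 10 tested members and lower in 0, with a summed level of 3310 to 4250 on the IKDC arrays, against 1060 to 2050 on the CDC arrays and 2090 to 8230 on the NK arrays. By sign, 5 members were higher and 2 lower in all 3 pairs. The differences ranged from -2.72 to 5.125, with a median of 0.59. Called lower were 2 members on the spleen arrays alone, with 6 groups in the fit or without the lymph node CDC array. Without the lymph node IKDC array 1 was called lower. Cd28, a costimulatory receptor, was at 9.88, 10.49 and 9.46 on the IKDC arrays, against 5.16, 4.17 and 5.12 on the CDC arrays, Cd3d, a chain of the T cell receptor complex, was at least 5.4-fold higher, Cd3g at least 8.06-fold and Thy1 14.6-fold. The NK arrays had Cd3d at similar levels, 7.24, 6.66 and 8.81 on the NK arrays. Macrophage markers were higher in 2 and lower in 2 of 10 tested members, with sums of 2020 to 6830 on the IKDC arrays, against 9180 to 17300 on the CDC arrays. The lower members were Adgre1, an adhesion receptor of macrophages (-3.56 ± 0.47 (SE), adjusted p = 0.000957), and Cd68, a lysosomal glycoprotein (-2.77 ± 0.65 (SE), adjusted p = 0.0181) that was not called without spleen CDC array 1, spleen CDC array 2 or the lymph node CDC array (adjusted p up to 0.067). The higher members were Maf, a transcription factor that lymphocytes also use (3.21 ± 0.44 (SE), adjusted p = 0.0012), and Cd163, a scavenger receptor (1.69 ± 0.48 (SE), adjusted p = 0.0391) that was not called without spleen IKDC array 2, spleen CDC array 1 or spleen CDC array 2 (adjusted p up to 0.133). B cell markers gave 0 calls in 8 tested members in limma, 2 of them with an unadjusted p below 0.05, but 3 were called lower on the spleen arrays alone or without the lymph node CDC array, 2 without the lymph node IKDC array and 1 without spleen IKDC array 1. They had sums of 1590 to 4030 on the IKDC arrays, against 2330 to 5240 on the CDC arrays. Blk, a B cell kinase (-1.79 ± 0.57 (SE), adjusted p = 0.064), and Ms4a1, which encodes CD20 (-1.42 ± 0.47 (SE), adjusted p = 0.0695), were nearest to the threshold. Of 3 neutrophil markers Csf3r, the G-CSF receptor, was lower (-0.94 ± 0.25 (SE), adjusted p = 0.0317) and not called when any single IKDC or CDC array was left out (adjusted p 0.0521 to 0.12). The 2 erythroid and platelet markers and the 3 basophil and mast cell markers that passed the filter gave no call in limma, and 0 had an unadjusted p below 0.05. The part of such cells in the differences above was not tested.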

How the data were processed

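Per the labels' protocols, each array took biotinylated cRNA prepared from 6 µg of RNA. The authors deposited 1 linear intensity per probe set, already scaled: trimmed at percentiles 2 and 98, every array averaged 150.0008 to 150.001. Sources used here do not give the software. Of 45101 probe sets, 64 controls, 932 with several symbols and 9160 with none were left out, and 34945 carried 1 symbol. The offset of 6.49 intensity units was the 20th percentile of all values. After log2 transformation and quantile normalisation, each of 18193 genes took its brightest probe set, and the 10916 whose mean reached the 40th percentile were tested.

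Limma 3.58.1 in R 4.3.3 (lmFit, eBayes with trend) fitted organ and cell type on 9 arrays (5 residual and 4.05 prior degrees of freedom). The organ test used 6 groups (3 residual and 3.44 prior). In data simulated for the main comparison, 96% of 4-fold and 22% of 2-fold differences and 0.0467% of 10716 unchanged genes were called. The simulation changed 100 genes at each fold, a far smaller share than the 17.4% called in the data. It also drew the noise of each array independently. These rates therefore need not hold for the data. The number of arrays limits the precision.

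Named genes were the 10 largest called differences each way among genes with 1 sign in all 3 pairs and no overlap of the IKDC and CDC arrays, up to 4 called members of each list, a fixed set of genes and the 5 largest organ differences each way. The members, lists and this rule were chosen with earlier results of these data known. P-values are two-sided. Other scalings, offsets, probe set choices, filters, models and sample sets were tried, and the closing section gives their effect.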

Additional observations from a re-analysis of the deposited data

Results flagged for a closer look

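In 5 gene lists with at least 5 tested members the median difference of the lymph node pair had the opposite sign to those of both spleen pairs. For lists the difference between organs was not tested, and with a lone lymph node pair it has no replicate check. The proliferation list had a median of 0.69, 0.05 and -1.21 in the spleen 1, spleen 2 and lymph node pairs. The immediate early and stress list had -0.82, -0.39 and 0.164. The list of plasmacytoid dendritic cell markers had -0.30, -0.35 and 1.62, and it stood out by the level of the lymph node IKDC array given above. The B cell list had -1.06, -1.86 and 0.458. The macrophage and monocyte list had 0.55, 1.54 and -1.05. The same held for 2 smaller lists, the erythroid and platelet markers with 0.34, 0.15 and -0.75, and the basophil and mast cell markers with 1.43, 1.06 and -0.62.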

How the results depend on the processing

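The counts kept within 1.5 times under most alternatives. Calls numbered 1894 in all, 1003 higher and 891 lower, and 1305 to 1841, 632 to 1025 and 616 to 823 when 1 array at a time was left out. Only IKDC and CDC arrays were left out in this way, and the NK arrays were always kept. Without the lymph node IKDC array 632 genes were called higher. On the spleen arrays alone 1115 genes were called, 515 of them higher, and on the IKDC and CDC arrays alone 660 were called higher. Genes lower in all 3 pairs numbered 4237 without the filter on dim genes, beside 4224 higher. With a filter at the 60th percentile 1720 were lower and 2333 higher. With 1 array left out, which leaves 2 pairs, the counts were 3967 to 4184 higher and 3361 to 3701 lower. Higher calls outnumbered lower calls under most alternatives. The exceptions were the 75th percentile shift (889 higher, 914 lower), the median of probe sets (790, 880) and the spleen arrays alone (515, 600). The others were the IKDC and CDC arrays alone (660, 692) and the set without the lymph node IKDC array (632, 673). Lists with 1 in 2 or more tested members called numbered 15, and 8 to 14 with 1 array left out, the lowest without spleen CDC array 2. The organ test gave 0 calls under every alternative run, and could not be run without a lymph node array.

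A replicate block raised the calls to 2402, 1318 higher and 1084 lower, among them all 1894. The numbers are not said to mark a common sort or animal, and only 2 exist in spleen. Same-numbered arrays shared deviations from their group means, as a hint from the data, with r across genes of 0.529 for IKDC and CDC, 0.485 for IKDC and NK and 0.412 for CDC and NK. The block gave 0 calls in the organ test.

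Of the 114 called genes named by the rule, 94 were called under each of the 20 alternatives in which they were tested, and 29 of the 114 were not tested in all of them. Missing were 33 values, 28 of them under the filter at the 60th percentile. Among the 2247 values of the 114, 2146 were past the threshold in the same direction, 101 fell short of it and 0 reversed.

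Ctse, called but outside that rule, reversed to -0.33 on the median of its probe sets. Other reversals touched 12 genes given in the text that were not called, and the cause was not tested. The difference was -0.61 for Ptprc on values as deposited and -0.65 after a 75th percentile shift. On spleen arrays alone it was -0.13 for Ptprc, 0.33 for Mki67, -0.95 for Lair1, 0.11 for Socs2 and 0.37 for Cdkn1a. With 1 array at a time left out, the difference ranged from -0.10 to 0.25 for Ptprc, -1.11 to 0.44 for Mki67, -0.59 to 1.68 for Lair1, -1.77 to 0.40 for Cdkn1a, -0.17 to 1.19 for S100a8, -0.30 to 0.73 for Pf4, -0.40 to 0.10 for Id2, -1.94 to 0.58 for Tlr7, -2.46 to 0.17 for Ccr9, -0.23 to 2.24 for Gadd45b and -0.028 to 1.05 for Klrb1b.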

Other observations

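Further called genes outside the lists were chosen after their values were seen and are given as values. Lymphocyte genes among them were higher in IKDC. Trbv1, a variable segment of the T cell receptor beta locus, was at 11.30, 11.75 and 11.69 on the IKDC arrays, against 6.21, 5.15 and 7.48 on the CDC arrays (5.30 ± 0.39 (SE), adjusted p = 4.16e-05), and Trgv1, a segment of the gamma locus, was at 9.64, 7.44 and 8.52 on the IKDC arrays, against 4.43, 4.58 and 5.26 on the CDC arrays. Such segments can be transcribed without a rearranged receptor, and rearrangement was not measured. The NK arrays were at 11.47, 10.89 and 12.05 on Trbv1 and at 7.67, 8.00 and 10.31 on Trgv1. As with class II genes, probes for such segments can cross-hybridise, so the signal is not assigned to a single segment. Cd27, a receptor of the TNF family that marks NK cell stages, was at least 15.8-fold higher, Cd96, an NK and T cell receptor for nectin-like ligands, 19.1-fold and Cd69, an early activation marker, 10.7-fold. Rasgrp1, the Ras exchange factor of T and NK cells, was at 10.79, 10.24 and 10.77 on the IKDC arrays, against 7.08, 7.08 and 7.59 on the CDC arrays, opposite in direction to Rasgrp3, but on the median of its probe sets its difference was 0.24 and not called. Ms4a4b, a membrane protein of T and NK cells, was 33-fold higher (5.04 ± 0.55 (SE), adjusted p = 0.000329), and Sidt1, a transmembrane protein related to a worm RNA channel, at least 11.4-fold (5.38 ± 0.31 (SE), adjusted p = 1.93e-05).

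Other genes outside the lists, of several kinds, were lower in IKDC. Wdfy4, which cross-presentation by dendritic cells requires, was at 8.21, 8.06 and 7.74 on the IKDC arrays, against 12.55, 12.72 and 12.30 on the CDC arrays (-4.52 ± 0.49 (SE), adjusted p = 0.000296). Dnase1l3, a secreted nuclease, was at 7.05, 6.97 and 6.89 on the IKDC arrays, against 11.54, 11.51 and 11.09 on the CDC arrays, and Naaa, a lysosomal amidase, was 30.3-fold lower (-4.92 ± 0.45 (SE), adjusted p = 0.000118). The IKDC and CDC arrays lay 3 or more apart on each of these genes. Fcgrt, the neonatal Fc receptor, was 13.2-fold lower, Treml4, a receptor of myeloid cells that binds dead cells, 19.1-fold, Aif1, an actin-binding protein of macrophages, 14.3-fold, and Tgfbi, an extracellular matrix protein, 20.5-fold. Ccnd1, a cyclin, was at 7.41, 8.02 and 7.34 on the IKDC arrays, against 11.05, 11.30 and 10.06 on the CDC arrays (-3.21 ± 0.41 (SE), adjusted p = 0.000776).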
